A study of Mus musculus with 8 samples.

Results

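Polycomb proteins hold developmental genes silent in pluripotent cells, and 9 genes for their subunits were followed here across mouse parthenogenetic stem cells, the embryoid bodies grown from them and embryonic stem cells. The 9 genes were Ezh2, Ezh1, Eed and Suz12 of Polycomb repressive complex 2 (PRC2), its accessory subunits Jarid2 and Mtf2, and Cbx2, Cbx7 and Phc1 of Polycomb repressive complex 1 (PRC1). They were chosen with earlier results of these data known and were taken by gene symbol. Every one of the 28 probe sets that carried one of these symbols alone was read, out of 45101 probe sets and 18194 named genes on the array. Of these 9 genes, 8 were lower in embryoid bodies than in the stem cells they came from, by 1.64-fold for Eed to 4.41-fold for Phc1 on their brightest probe sets, and Cbx2 was the one not called. Of all 18194 genes, 25.2% were called lower in that comparison. Between the 2 kinds of stem cell the differences on the brightest probe sets were at most 1.44-fold.

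The study hybridised RNA of 8 samples to single-colour Affymetrix mouse arrays. The 3 PSC samples were parthenogenetic stem cells of strain C57BL/6, derived from day 6 blastocysts of oocytes that had been taken from superovulated mice and activated with strontium chloride, so that both of their genomes are maternal. The 2 EB_PSC samples were C57BL/6 PSC kept as embryoid bodies, free-floating aggregates in which stem cells differentiate, for 15 days. The 3 ESC samples were of R1, a single line of fertilised-embryo origin, grown with leukaemia inhibitory factor on mouse embryonic fibroblast feeders. A strain is named for PSC and EB_PSC and feeders are named for ESC, so line, parental origin, strain and culture cannot be told apart in any comparison with ESC. Nothing in the labels says whether replicate arrays stand for separate cultures. The p-values set each difference between groups against the spread of these arrays only, and that spread may be technical.

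PRC2 methylates histone H3 on lysine 27. Ezh2 and Ezh1 are its alternative catalytic subunits, Eed binds the finished mark and stimulates the enzyme, and Suz12 is the scaffold. Jarid2 and Mtf2 guide PRC2 to CpG-rich promoters. PRC1 compacts chromatin and ubiquitinates histone H2A: Cbx proteins read the PRC2 mark through a chromodomain, and Phc1 is a polyhomeotic subunit that links complexes through its SAM domain. In mouse embryonic stem cells Cbx7 is the main chromodomain subunit, and other Cbx proteins take over during differentiation.

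All values below are log2 expression values made by robust multi-array averaging (RMA), and each gene is represented by its brightest probe set over the 8 arrays. A difference of 1 is a 2-fold change. A gene was called when limma's adjusted p (Benjamini-Hochberg over all 18194 genes) was below 0.05, and a probe set was termed dim where its group mean lay below 5.44, the median of all values. The values ran from 2.56 to 14.86, with array medians of 5.39 to 5.47. Arrays of one group correlated at 0.991 to 0.995 over all probe sets, PSC with ESC at 0.978 to 0.986 and PSC with EB_PSC at 0.934 to 0.943. All 10 pluripotent cell markers measured, Pou5f1 and Nanog among them, were above the dim limit in PSC, in ESC and also in EB_PSC. None of the 9 Polycomb genes was dim in any group.

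**Figure D1:**
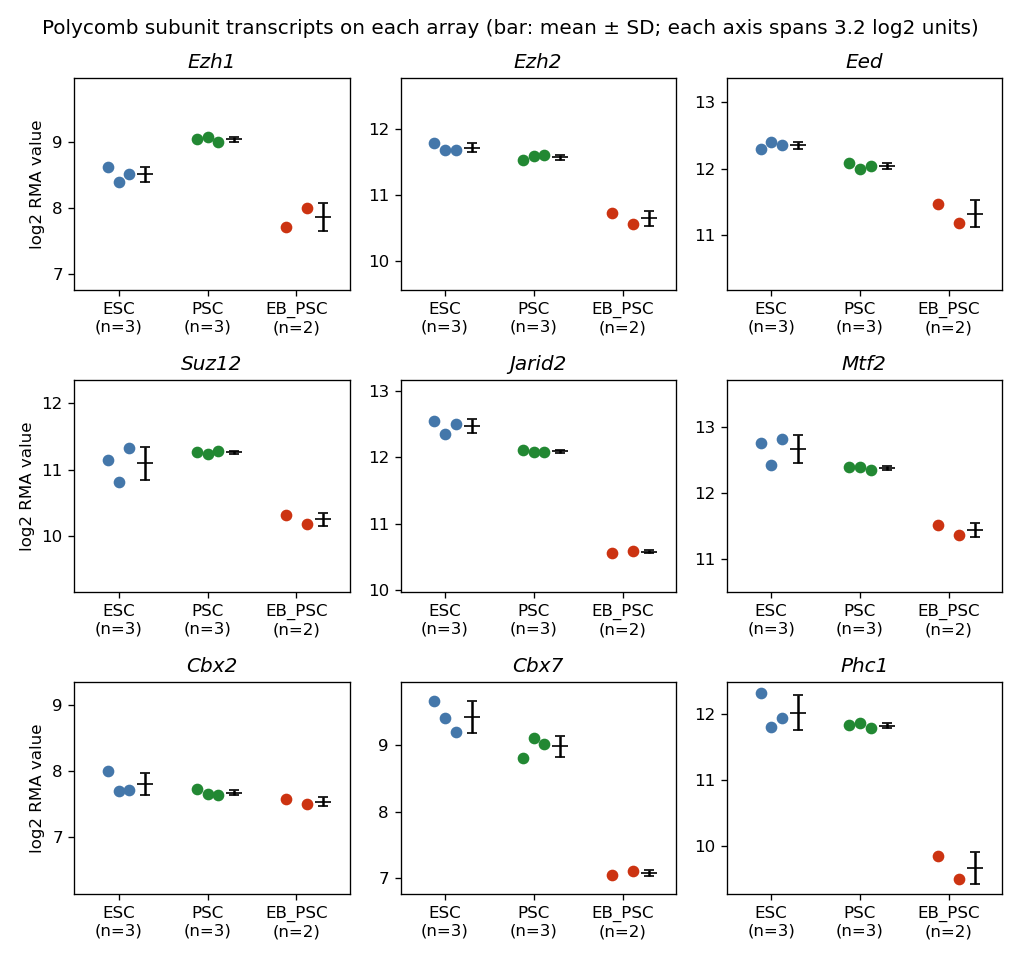
Log2 RMA value (vertical axis, each spanning the same range) of the 9 Polycomb genes on each array of ESC (3), PSC (3) and EB_PSC (2); points are arrays and bars the group mean ± SD. Both EB_PSC points lie below all stem cell points for all 9 genes, with the narrowest gap for Cbx2, and Phc1 falls from 11.82 in PSC to 9.68. Of all genes, 37.8% had both EB_PSC arrays below the PSC arrays and, taken separately, 36.1% below the ESC arrays. The share below both kinds of stem cell at once was not computed.

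Both catalytic subunits fell in embryoid bodies, and Ezh1 was the one called between the stem cells. Ezh2 read 11.53, 11.59 and 11.60 in PSC, 10.73 and 10.57 in EB_PSC, and 11.79, 11.68 and 11.68 in ESC. Both embryoid body arrays lay below all 6 stem cell arrays, and the 3 PSC arrays lay just below the 3 ESC arrays. Ezh2 was lower in EB_PSC than in PSC by 1.89-fold, a log2 difference of -0.92 ± 0.12 (SE, adjusted p = 3.02e-05). For PSC against ESC its difference of -0.14 ± 0.11 was not called (adjusted p = 0.419, 95% interval -0.37 to 0.09). Because each array measured a whole culture, fewer cells of a type and less RNA per cell cannot be told apart in any of these differences.

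Ezh1, the paralogue with the weaker methyltransferase activity, read 9.05, 9.07 and 9.00 in PSC, 7.71 and 8.01 in EB_PSC, and 8.63, 8.40 and 8.51 in ESC. The 3 groups did not overlap, and PSC stood highest. It was the only one of the 9 genes called higher in PSC than in ESC, by 0.53 ± 0.12 or 1.44-fold (adjusted p = 0.00678). In embryoid bodies it was 2.27-fold lower than in PSC (-1.18 ± 0.13, adjusted p = 7.9e-06, or -0.74 with all 4 of its probe sets averaged) and lower than in ESC by a smaller margin (-0.65 ± 0.13, adjusted p = 0.00106). A second Ezh1 probe set that was not dim in stem cells lay 0.33 higher in PSC than in ESC without being called (adjusted p = 0.137 over all probe sets), and averaging all 4 Ezh1 probe sets, 2 of them dim in every group, ended the call (0.23, adjusted p = 0.0921).

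Eed and Suz12, which complete the PRC2 core, fell with the enzymes. Eed read 12.08, 11.99 and 12.04 in PSC, 11.46 and 11.18 in EB_PSC, and 12.30, 12.40 and 12.36 in ESC. No Eed value of one group reached into another, with ESC highest and embryoid bodies lowest. The fall from PSC to EB_PSC was 1.64-fold (-0.72 ± 0.13, adjusted p = 0.000381), the smallest among the 8 called genes, and averaging it with a second probe set that was dim in all groups gave -0.38 (-0.36 against ESC). Its lower level in PSC than in ESC, -0.32 ± 0.11, missed the threshold (adjusted p = 0.0662).

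Suz12 read 11.27, 11.24 and 11.28 in PSC, 10.32 and 10.18 in EB_PSC, and 11.14, 10.82 and 11.32 in ESC. The ESC arrays spread around the tight PSC values, whereas both embryoid body arrays were lower. Its difference was -1.02 ± 0.15 for EB_PSC against PSC (2.02-fold, adjusted p = 7.67e-05) and 0.17 ± 0.13 for PSC against ESC (adjusted p = 0.418, 95% interval -0.11 to 0.46). All 6 Suz12 probe sets were called lower in EB_PSC than in PSC, at differences of -1.08 to -0.80.

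Because these genes moved together, the 300-base windows around their annotated starts (RefSeq, GRCm38.p6, 250 bases before and 50 after) were searched on both strands for the E2F octamers TTTCCCGC, TTTCGCGC, TTTGCCGC and TTTGGCGC, the CCAAT box and the GC box GGGCGG. Of the 9 genes 8 had a window and Cbx2 had none listed. The 8 genes had 10 windows, 2 each for Jarid2 and Mtf2. An E2F octamer was present in 2 of the 10, those of Ezh2 and Suz12, against 2.26% of all 32851 windows. The CCAAT box was found in 7 of the 10, against 37.4% of all windows, and the GC box in 5, against 35.7%. The ratio of observed to expected CpG was 0.999 in the Ezh2 window, 1.09 in that of Suz12 and lowest, at 0.132, in the second Mtf2 window. Its median over all windows was 0.384. Motif shares among windows of similar CpG content were not computed. None of the searched motifs overlapped another in the stretches shown. The Ezh2 stretch, chr6:47595011-47595150 on the minus strand, runs from position -120 to 20 relative to the start, and the Suz12 stretch, chr11:79992881-79993080 on the plus strand, from -225 to -26. Capitals mark the matches on either strand: in Ezh2 a CCAAT box on each strand upstream, a further one ending at -7 and the octamer TTTGGCGC at 4 to 11, and in Suz12 the octamer TTTCCCGC at -219 to -212, followed by a GC box, a CCAAT box and 2 more GC boxes.
Ezh2: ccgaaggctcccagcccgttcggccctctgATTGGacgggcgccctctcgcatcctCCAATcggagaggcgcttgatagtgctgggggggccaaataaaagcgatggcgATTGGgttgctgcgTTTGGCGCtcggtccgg
Suz12: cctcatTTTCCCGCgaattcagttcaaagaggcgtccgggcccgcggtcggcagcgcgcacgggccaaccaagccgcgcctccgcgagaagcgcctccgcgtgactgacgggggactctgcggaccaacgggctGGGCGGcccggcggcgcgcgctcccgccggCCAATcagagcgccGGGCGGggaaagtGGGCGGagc
These matches describe the letters in the windows and do not show that a factor binds there.

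The accessory subunits Jarid2 and Mtf2 were lower in embryoid bodies as well. Jarid2 read 12.11, 12.08 and 12.08 in PSC, 10.56 and 10.59 in EB_PSC, and 12.55, 12.36 and 12.51 in ESC. The groups were separate and tight, with ESC highest and embryoid bodies well below both kinds of stem cell. The fall was 2.86-fold from PSC (-1.52 ± 0.12, adjusted p = 2.54e-07) and 3.74-fold from ESC (-1.90 ± 0.12, adjusted p = 2.5e-08). PSC was called lower than ESC by 1.30-fold (-0.38 ± 0.11, adjusted p = 0.0215), and all 3 Jarid2 probe sets gave this direction and were called, at -0.60 to -0.38. That call was lost when any single PSC or ESC array other than the second ESC array was left out (adjusted p 0.0598 to 0.0758), and when the values were normalised again by quantiles (adjusted p = 0.062) or cyclic loess (adjusted p = 0.0613).

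Mtf2, a Polycomb-like protein whose winged-helix domain binds unmethylated CpG DNA, read 12.40, 12.39 and 12.34 in PSC, 11.51 and 11.36 in EB_PSC, and 12.75, 12.43 and 12.82 in ESC. Embryoid bodies lay below all stem cell arrays, and PSC lay below ESC with the second ESC array only just above it. The fall from PSC was 1.91-fold (-0.94 ± 0.14, adjusted p = 8.91e-05, or -0.62 when its 6 probe sets were averaged). The brightest probe set did not give a call between PSC and ESC (-0.29 ± 0.12, adjusted p = 0.126). Other Mtf2 probe sets disagreed about this comparison when each was tested over all probe sets. A group of 3 further sets, each well above the dim limit, was called lower in PSC, at differences of -0.94 to -0.79. They read from 9.42 to 10.34 in PSC against 10.50 to 11.05 in ESC, with adjusted p of 0.000439 to 0.000627. One more set was called higher by 0.59 (adjusted p = 0.00413), with 6.57, 6.44 and 6.55 in PSC against 6.05, 5.95 and 5.79 in ESC. The same 5 probe sets were all called lower in embryoid bodies than in PSC, at -0.95 to -0.37. Which transcripts the individual sets read was not analysed here.

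On the brightest probe sets, the PRC1 genes held both the largest falls from PSC and the one gene without a call. Phc1 read 11.83, 11.86 and 11.79 in PSC, 9.85 and 9.51 in EB_PSC, and 12.32, 11.81 and 11.94 in ESC. The stem cell groups overlapped, and embryoid bodies stood about 2 log2 units below them. Phc1 fell 4.41-fold from PSC (-2.14 ± 0.16, adjusted p = 1.67e-07) and 5.06-fold from ESC (-2.34 ± 0.16, adjusted p = 6.26e-08). Only 0.638% of the 18194 genes had a lower difference from PSC to EB_PSC.

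Cbx7 read 8.81, 9.12 and 9.03 in PSC, 7.04 and 7.10 in EB_PSC, and 9.68, 9.42 and 9.20 in ESC. The lowest ESC array was just above the highest PSC array, and embryoid bodies were far below both. Its fall was 3.77-fold from PSC (-1.92 ± 0.15, adjusted p = 3.18e-07) and 5.15-fold from ESC (-2.36 ± 0.15, adjusted p = 3.6e-08). A difference lower than that from PSC was seen in 1.06% of genes. The second Cbx7 probe set, not dim in any group, fell less, by 0.95 from PSC (adjusted p = 0.00131 over all probe sets) and by 0.58 from ESC (adjusted p = 0.0245). Averaging its 3 probe sets, 1 of them dim in all groups, gave -1.06 in both comparisons, a smaller fall than that of Jarid2 (-1.61 from PSC and -2.12 from ESC when averaged). Cbx7 was also called 1.36-fold lower in PSC than in ESC (-0.45 ± 0.14, adjusted p = 0.0348), but its second probe set went the other way without a call (0.37, adjusted p = 0.164 over all probe sets), and averaging its 3 probe sets gave 0.00 (adjusted p = 0.997). The call between the stem cells was further lost without any one of the PSC or ESC arrays other than the third ESC array (adjusted p 0.0502 to 0.154).

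Cbx2, the PRC1 chromodomain protein with a strong compacting region, read 7.72, 7.65 and 7.64 in PSC, 7.58 and 7.49 in EB_PSC, and 8.00, 7.69 and 7.71 in ESC. The embryoid body arrays lay below the stem cell arrays by a margin no wider than the spread in ESC. Its differences were -0.13 ± 0.13 from PSC (adjusted p = 0.45, 95% interval -0.42 to 0.15) and -0.26 ± 0.13 from ESC (adjusted p = 0.129, 95% interval -0.55 to 0.02). On the brightest probe sets the interval against PSC does not reach the estimates of the other 8 genes in that comparison, the smallest being -0.72 for Eed. With its probe sets averaged, however, Eed gave -0.38 from PSC, which lies inside that interval. Neither interval shows that Cbx2 stayed level. No test of one gene's change against another's was made.

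The starts of Phc1 and Cbx7, the 2 genes with the largest falls on the brightest probe sets, are shown for comparison. Phc1 (chr6:122340228-122340377, minus strand, positions -150 to -1) held none of the searched motifs in its window and had a GC content of 52%, close to the median of 52.7% over all windows. Cbx7 (chr15:79932647-79932846, minus strand, positions -200 to -1) held 1 CCAAT box and 1 GC box, marked in capitals, at a GC content of 67.3%. The windows of the 8 genes ranged from 45.7% GC in the second Mtf2 window to 71% in Suz12.
Phc1: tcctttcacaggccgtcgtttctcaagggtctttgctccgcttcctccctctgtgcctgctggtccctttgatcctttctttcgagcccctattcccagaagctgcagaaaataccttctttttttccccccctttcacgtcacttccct
Cbx7: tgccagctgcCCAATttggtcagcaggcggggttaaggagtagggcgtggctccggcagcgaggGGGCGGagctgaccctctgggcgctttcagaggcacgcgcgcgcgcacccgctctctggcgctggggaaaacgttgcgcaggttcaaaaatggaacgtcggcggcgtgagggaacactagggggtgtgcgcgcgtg

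Set against all genes, the share of Polycomb genes called lower in embryoid bodies was above the background, and the share called between the stem cells was near it. The background counts 5781 genes that were dim in all groups, whereas none of the 9 genes was dim. The share called among genes that were not dim was not computed. In EB_PSC against PSC 8 of 9 were called lower and 0 higher, while 25.2% of all 18194 genes were called lower and 18.8% higher. The median difference was -1.02 for the 9 genes and -0.09 for all genes. In EB_PSC against ESC, which uses the same embryoid body arrays, 8 of 9 were again called lower, with a median of -1.06, against 25.6% of all genes lower, 19.3% higher and a median of -0.07. In PSC against ESC 1 of 9 was called higher and 2 lower, with a median of -0.20, where 9.07% of all genes were higher, 11.7% lower and the median was 0.01. These last counts are no result about the 9 genes. Because the list was chosen with earlier results of these data known, its excess in embryoid bodies is no independent test.

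**Figure D2:**
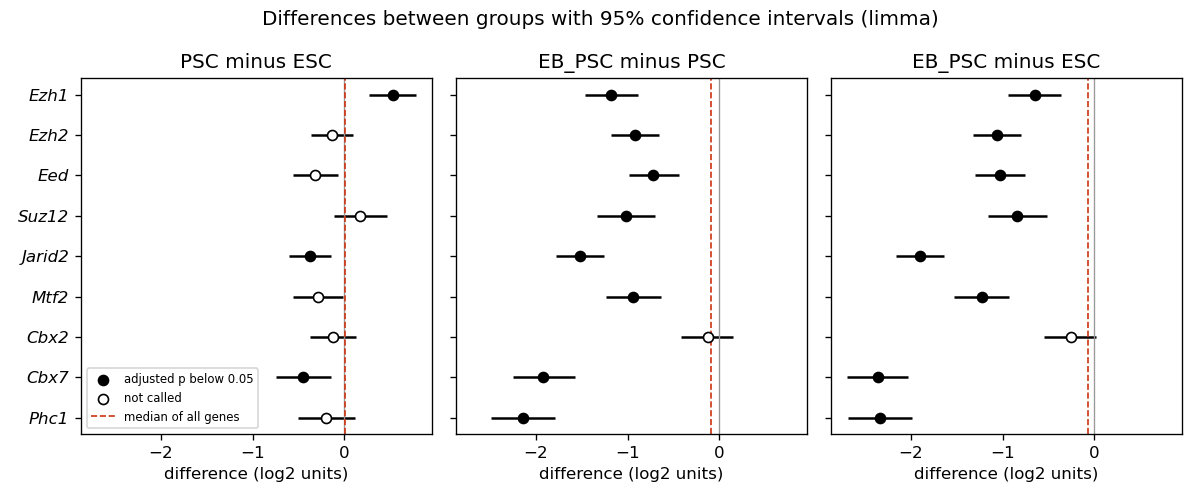
Log2 differences (horizontal axis) of the 9 Polycomb genes in the 3 comparisons, with 95% confidence intervals; filled points were called and the dashed line is the median of all genes. In both embryoid body comparisons 8 of 9 points lie far left of the dashed line, while the PSC minus ESC points lie between -0.45 and 0.53.

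The probe sets were also read one by one. Of 28 probe sets, 6 were dim in all groups, and 21 of the other 22 were called lower in EB_PSC than in PSC, the exception being the brighter Cbx2 set. None of the 6 dim sets was called, among them 1 of Cbx2 (-0.18) and 1 of Eed (-0.04), and Ezh2 and Phc1 have 1 set each. Over the 34958 single-symbol probe sets, dim ones included, 22% were called lower and 17.6% higher in that comparison. Against ESC 21 of the 28 were called lower, 1 of them dim, beside 23.2% lower and 17.9% higher over all. Between PSC and ESC 7 sets were called lower (3 of Jarid2, 3 of Mtf2 and 1 of Cbx7) and 2 higher (1 of Ezh1 and 1 of Mtf2), beside 10.5% lower and 7.78% higher over all. Several probe sets of one gene are repeated readings of it and no independent replicates.

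**Figure D3:**
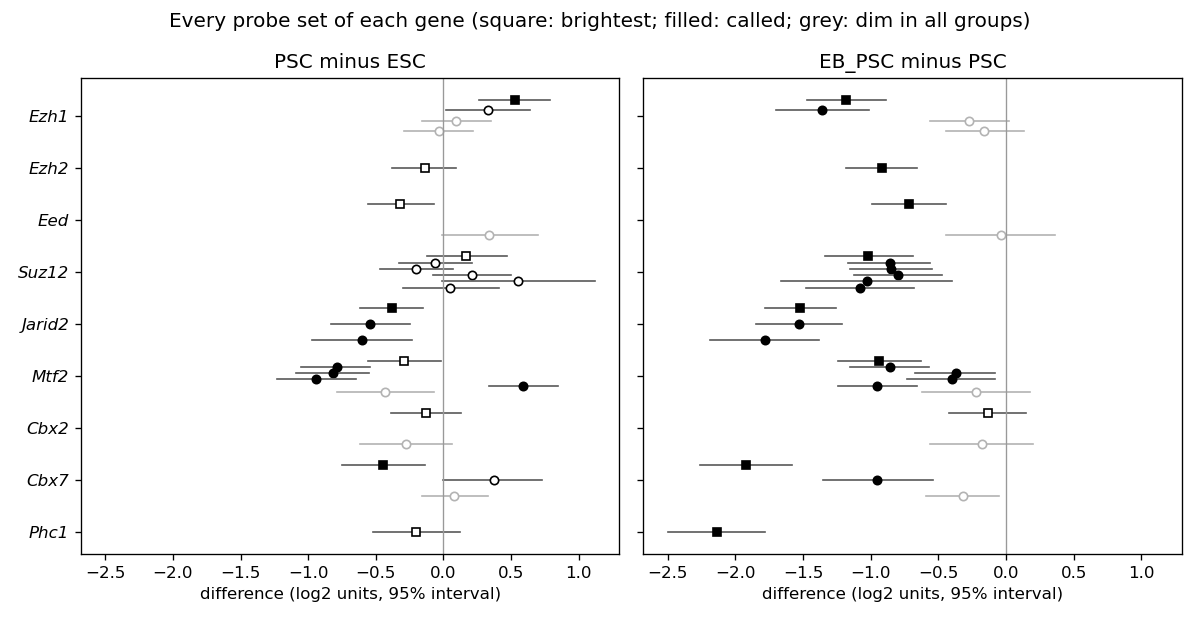
Log2 differences (horizontal axis, 95% intervals) of all 28 probe sets in PSC minus ESC and EB_PSC minus PSC; squares are the brightest set of a gene, filled symbols were called and grey outlines were dim in all groups. Mtf2 sets lie on both sides of 0 between the stem cells, from -0.94 to 0.59, and left of 0 in embryoid bodies.

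The other PRC2 genes moved in both directions. The list held Rbbp4, Rbbp7, Aebp2, Phf1, Phf19, Epop, Lcor, Lcorl and Eloa, of which Eloa encodes an elongin subunit and no PRC2 subunit. Of these 9, 3 were called lower and 1 higher in EB_PSC than in PSC, with a median of -0.26. Over all genes 25.2% were lower and 18.8% higher in that comparison. Epop, an accessory subunit that bridges PRC2 to elongin, read 7.64, 7.90 and 8.14 in PSC and 5.48 and 5.12 in EB_PSC, where it was dim, and 10.03, 9.36 and 9.13 in ESC. It was called lower in embryoid bodies than in PSC (adjusted p = 7.86e-07) and in PSC than in ESC (-1.62 ± 0.21, adjusted p = 0.000123). Lcor, whose locus also encodes a PRC2 accessory protein, rose 3.42-fold in embryoid bodies (1.77 ± 0.14, adjusted p = 2.51e-07). Its relative Lcorl fell by 0.86 (adjusted p = 0.00219) and was higher in PSC than in ESC by 1.94 ± 0.17 (adjusted p = 5.67e-06), values that shrank to -0.47 and 1.04 when its probe sets were averaged. Rbbp4, a histone chaperone shared with other complexes, was called lower (-0.37, adjusted p = 0.0204). That call was lost under cyclic loess (adjusted p = 0.0973), without the first PSC array or the first EB_PSC array (adjusted p 0.0656 and 0.114), and without the probe sets whose names end in _x_at or _s_at, which can match several transcripts (0.26, adjusted p = 0.321). Rbbp7, Aebp2, Phf1, Phf19 and Eloa were not called, at -0.34 to 0.31. With probe sets averaged, Phf19 (-0.54, adjusted p = 0.00251) and Phf1 (-0.34, adjusted p = 0.0389) were called lower and Eloa higher (0.34, adjusted p = 0.0242). Rbbp7 was called higher under cyclic loess (0.41, adjusted p = 0.0479). Between PSC and ESC the list had 2 genes higher, Lcor and Lcorl, and 1 lower, Epop, with a median of -0.02, beside 9.07% higher and 11.7% lower over all genes. In EB_PSC against ESC 2 were higher and 2 lower, with a median of -0.10, beside 19.3% higher and 25.6% lower over all genes.

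Other PRC1 genes moved in both directions. Of 22 measured, 10 were called higher and 7 lower in EB_PSC than in PSC, beside 18.8% higher and 25.2% lower over all genes. Their median was -0.07, close to that of all genes. Bmi1, also named Pcgf4, read 5.45, 5.54 and 5.40 in PSC, 8.61 and 8.46 in EB_PSC, and 6.05, 6.06 and 6.31 in ESC. Its PSC mean of 5.46 was at the dim limit, and embryoid bodies lay above every stem cell array. Bmi1, a RING-finger partner within canonical PRC1, was higher in EB_PSC than in PSC by 3.07 ± 0.13 (adjusted p = 5.82e-10) and lower in PSC than in ESC (-0.67 ± 0.12, adjusted p = 0.00123; -0.39 when its probe sets were averaged).

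Yaf2, a subunit of variant PRC1, rose 6.86-fold (2.78 ± 0.13, adjusted p = 1.7e-09), and Phc2, a paralogue of Phc1, rose 3.01-fold (1.59 ± 0.17, adjusted p = 4.39e-06). Phc2 read 7.62, 7.67 and 7.57 in PSC and 9.30 and 9.11 in EB_PSC, whereas Phc1 moved the other way. Against ESC the higher Phc2 level (1.52) was lost without the _x_at and _s_at probe sets (0.35, adjusted p = 0.0984). Bcor, E2f6, Pcgf3, Pcgf5, Phc3, Auts2 and Rnf2 were called higher by 0.34 to 1.31. With probe sets averaged per gene, Auts2 (0.15, adjusted p = 0.356), Phc3 (0.22, adjusted p = 0.0835) and Rnf2 (0.08, adjusted p = 0.601) were no longer called, Pcgf3 shrank to 0.27 and E2f6 to 0.47, Bcor shrank from 0.93 to 0.47 without the _x_at and _s_at probe sets, and Pcgf5 was not called without the first EB_PSC array (0.42, adjusted p = 0.11). Rnf2, the main E3 ligase subunit, was also lost without either EB_PSC array (adjusted p 0.0729 and 0.184), without the first or the second PSC array, and with the replicate number as a block (adjusted p = 0.0551).

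Among the genes that fell, Pcgf1, Pcgf2 and Pcgf6 encode the RING-finger partners that set the PRC1 subtype. Pcgf1 read 7.30, 7.44 and 7.27 in PSC, 5.48 and 5.40 in EB_PSC, and 7.70, 6.91 and 6.72 in ESC. It fell 3.73-fold from PSC (-1.90 ± 0.22, adjusted p = 1.02e-05). Pcgf2 fell by 1.38 (adjusted p = 4.58e-05, or -0.70 when its probe sets were averaged) and Pcgf6 by 0.90 (adjusted p = 3.27e-05). L3mbtl2 and Mga, partners of Pcgf6 in its complex, fell by 1.46 and 0.76. Scmh1 fell by 1.34 (-0.34 when averaged, and 0.80 higher than in ESC against -0.59 on its brightest set). Cbx6, another chromodomain paralogue, fell by 1.03 (-0.46 without the _x_at and _s_at probe sets). Ring1, Kdm2b, Bcorl1, Scml2 and Cbx8 were not called, and Cbx8 (means of 4.91 to 5.16) and Scml2 (5.18 to 5.42) were dim in every group.

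Between PSC and ESC the PRC1 list had 3 genes higher (Phc3, Kdm2b and Scmh1), 3 lower (Bmi1, L3mbtl2 and Bcor) and 16 not called, with a median of -0.05. Over all genes 9.07% were higher and 11.7% lower. With averaged probe sets 3 were higher and 7 lower, and with array weights 5 higher and 7 lower. Leaving out the first ESC array, the first PSC array or the second PSC array left 1 lower, and leaving out the second ESC array gave 5 lower. Kdm2b, which recruits variant PRC1 to CpG islands, was higher in PSC by 0.63 (adjusted p = 0.00529), but this turned to -0.39 (adjusted p = 0.0572) without the _x_at and _s_at probe sets. The calls of L3mbtl2, Bcor and Scmh1 were each lost without certain single arrays, among them the second PSC array (adjusted p 0.0682, 0.135 and 0.0726). Cbx6 and Phc2 were called lower in PSC (-0.81 and -0.78) when the _x_at and _s_at probe sets were left out. In EB_PSC against ESC 9 were higher and 8 lower, with a median of 0.11, beside 19.3% higher and 25.6% lower over all genes.

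**Figure D4:**
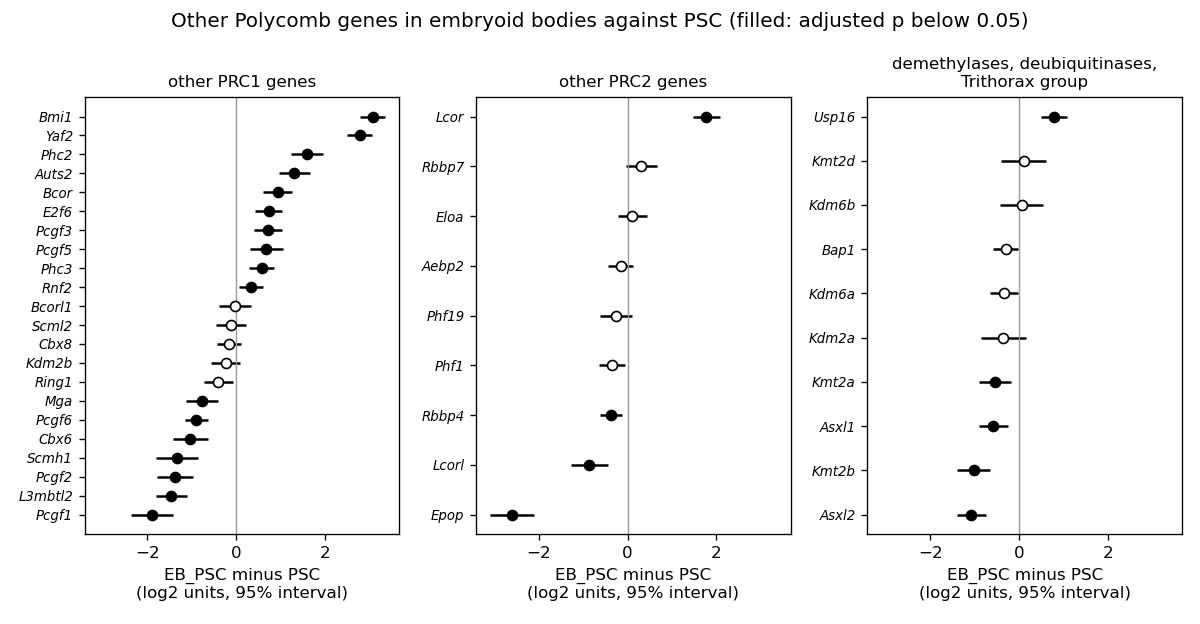
EB_PSC minus PSC log2 differences (horizontal axis, 95% intervals) of other PRC1 genes (22), other PRC2 genes (9, listed with Eloa of elongin) and 10 genes of histone demethylases, deubiquitinases and the Trithorax group; filled points were called. Bmi1 (3.07) and Yaf2 (2.78) stand at the top of the PRC1 panel and Pcgf1 (-1.90) at the bottom, while Epop (-2.60, dim in EB_PSC) is lowest in the PRC2 panel.

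Enzymes that remove Polycomb marks and Trithorax-group methyltransferases were listed with the demethylase Kdm2a. Of these 10 genes 4 were called lower and 1 higher in EB_PSC than in PSC, with a median of -0.35, beside 25.2% lower and 18.8% higher over all genes. Asxl2 and Asxl1, cofactors of the H2A deubiquitinase Bap1, fell by 1.07 (adjusted p = 5.83e-05) and by 0.58 (adjusted p = 0.00642, and 0.0575 without the second EB_PSC array). Kmt2b and Kmt2a, histone H3 lysine 4 methyltransferases, fell by 1.02 (adjusted p = 0.000272) and by 0.53 (adjusted p = 0.0201). The Kmt2a call was lost without either EB_PSC array (adjusted p 0.054 and 0.105), without the first or the third PSC array, under cyclic loess and when its probe sets were averaged. The H2A deubiquitinase Usp16 rose by 0.79 (adjusted p = 0.000327, or 0.28 and 0.0592 when averaged). The lysine 27 demethylases Kdm6a and Kdm6b were not called on their brightest probe sets, at -0.34 (adjusted p = 0.07) and 0.07 (adjusted p = 0.838). Kdm6b was called higher with its probe sets averaged (0.42, adjusted p = 0.0187) and with the mean of those not dim (0.65, adjusted p = 0.00158). Kdm6a was called lower when the values were normalised again by quantiles (-0.36, adjusted p = 0.0326). Between PSC and ESC Kdm6b (-0.75), Kmt2d (-0.64) and Kdm2a (-0.73) were called lower and 0 higher, with a median of -0.17, beside 11.7% lower and 9.07% higher over all genes. Each of the 3 calls was lost without the second or the third PSC array (adjusted p 0.0637 to 0.153). In EB_PSC against ESC 7 were lower and 1 higher, with a median of -0.63, against 25.6% and 19.3% of all genes, and 4 were lower without the second EB_PSC array or under cyclic loess.

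Of 30 measured genes known as Polycomb targets in embryonic stem cells, 15 were dim in PSC, where 36% of all genes were dim, and 18 in ESC (36.6% of all genes). In EB_PSC against PSC 13 were called higher, 2 lower and 15 not, with a median of 0.29, beside 18.8% higher and 25.2% lower over all genes. Sox17, an endoderm transcription factor, read 3.39 to 3.68 in PSC and 9.69 and 9.58 in EB_PSC, and Bmp2 read 3.18 to 3.57 and 9.23 and 8.57; both were dim in PSC. The Sox17 difference of 6.12 shrank to 3.73 when its probe sets were averaged and to 1.35 without the _x_at and _s_at probe sets. Eomes rose by 3.37 and Cdkn2b, a cell cycle inhibitor of the locus that Cbx7 and Bmi1 are known to repress, by 3.36 ± 0.14 (adjusted p = 5.54e-10). Its neighbour Cdkn2a read 5.83 and 6.71 in EB_PSC against 5.21 to 5.68 in PSC, and its call (0.83 ± 0.23, adjusted p = 0.00999) was lost without the second EB_PSC array (0.38, adjusted p = 0.198). Tbx3 fell by 2.52 (-1.15 when its probe sets were averaged), and Olig2, dim in EB_PSC, read 7.01, 6.57 and 8.01 in PSC and 4.93 and 4.11 in EB_PSC. Between PSC and ESC 27 of 30 were not called, with a median of 0.02, where 9.07% of all genes were higher and 11.7% lower. The exceptions were Olig2 (higher in PSC, and dim in ESC at a mean of 3.66), Tbx3 (0.66 higher, not called when its probe sets were averaged) and Foxd3 (-1.32). In EB_PSC against ESC 15 were higher and 3 lower, with a median of 0.37, beside 19.3% higher and 25.6% lower over all genes. RNA levels do not show where Polycomb complexes or their marks lie.

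Other gene groups moved in the same arrays as the Polycomb genes. All 10 pluripotent cell markers were called lower in EB_PSC than in PSC, with a median of -2.03, from mean levels of 11.60 to 11.77 on the PSC arrays to 9.50 and 9.63. Of 20 proliferation genes 15 were called lower and 0 higher, with a median of -0.87. Their mean level was 11.00 to 11.09 in PSC, 10.07 and 10.22 in EB_PSC and 11.03 to 11.17 in ESC. Mybl2 fell by 3.31, Mcm3 by 1.64, E2f1 by 1.32 and Mki67 by 0.53 ± 0.12 (adjusted p = 0.00317). Of the markers of differentiated cells, 10 of 10 were called higher for cardiomyocytes, 6 of 8 for endoderm and 4 of 6 for erythroid cells, with 0 lower, where 18.8% of all genes were higher and 25.2% lower. For fibroblasts 9 of 11 were higher and 1 lower, and for endothelium 5 of 6 and 1. For macrophages 3 of 6 were higher and 1 lower, and for neural cells 2 higher and 2 lower of 6, with a mean level of 5.74 to 5.88 in PSC and 5.55 and 5.62 in EB_PSC. The endoderm list shares Sox17, Foxa2 and Gata6 with the Polycomb target genes, and the neural list shares Sox1. These shared genes were all called higher and are counted in both lists. The part of the change in cell types and proliferation in the fall of the Polycomb genes was not tested.

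**Figure D5:**
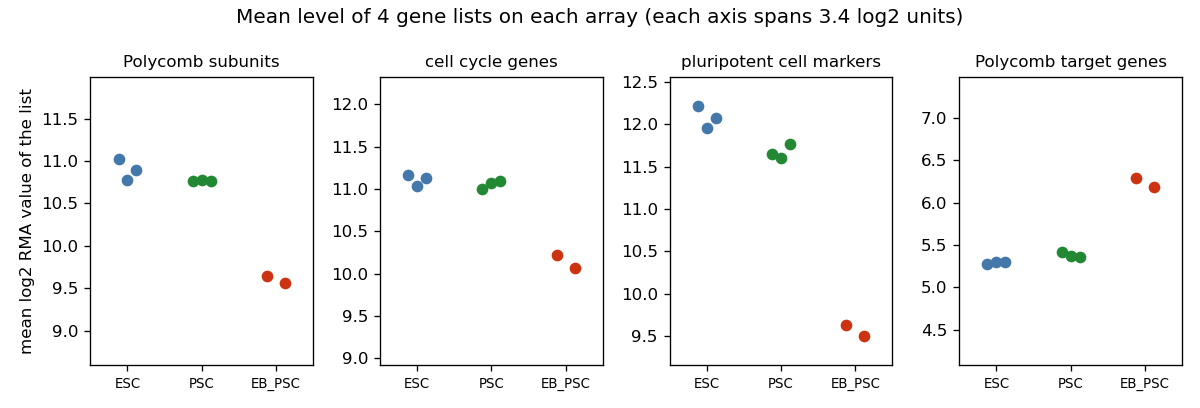
Mean log2 RMA value (vertical axis, each spanning the same range) of the 9 Polycomb genes, 20 cell cycle genes, 10 pluripotent cell markers and 30 Polycomb target genes on each array of ESC, PSC and EB_PSC. The Polycomb mean is 10.76 to 10.78 in PSC and 9.56 and 9.64 in EB_PSC, and the target gene mean is higher in EB_PSC, at 6.18 and 6.29.

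Fibroblast markers were compared between PSC and ESC as well. Of 11 measured, 7 were called lower in PSC and 0 higher, with a median of -0.85, beside 11.7% lower and 9.07% higher over all genes. Their mean level was 5.68 to 5.86 in PSC and 6.46 to 6.82 in ESC, where the labels name fibroblast feeders. The difference between 3' and 5' control probe sets, a measure of RNA integrity and labelling, was -0.06 to 0.00 for Gapdh in PSC, -0.09 and -0.06 in EB_PSC and 0.08 to 0.17 in ESC. For b-Actin it was 1.04 to 1.54 in PSC, 1.09 and 1.17 in EB_PSC and 0.69 to 1.13 in ESC. Of the 10 pluripotent markers 2 were called lower in PSC than in ESC, Zfp42 (-2.73) and Pou5f1 (-0.61), 1 higher, Fgf4 (0.51, adjusted p = 0.0278, lost when its probe sets were averaged and without any single PSC array), and 7 were not called. The part of feeder RNA, RNA quality and culture state in the differences of Ezh1, Jarid2 and Cbx7 was not tested.

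The genes with the most similar profiles over the 8 arrays were sought for 5 of the Polycomb genes among 10877 genes above the dim limit in every group, by the root mean square distance between profiles centred on their own means. Phc1 was closest to Pml, Espl1 and Fkbp5, at distances of 0.0585 to 0.0766 log2 units. Cbx7 had no neighbour nearer than Rcc2 at 0.113, followed by Rpap1 and H2ax. Nearest to Ezh2 were Fbxo5, an inhibitor of the anaphase-promoting complex, Cdc5l and Crlf3 (0.0526 to 0.0599). Ezh1, with its maximum in PSC, was nearest to Fbxo21, Dennd4b and Ldhb (0.0645 to 0.0865), and Cbx2 to Sipa1l3, Kmt2c and Arfip2 (0.0348 to 0.0572). With 3 groups and 8 arrays these distances mainly follow the group means.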

How the data were processed

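Gene expression was measured in 8 samples (3 PSC, 2 EB_PSC, 3 ESC) on Affymetrix arrays with one-cycle labelling, per the labels' protocols. The deposited log2 values, 45101 probe sets, were made by the authors with RMA, per the submitters' processing notes; its version is not given in the sources used here, and Bioconductor is named in the labels. Probe sets were named from the platform's annotation: 34958 had 1 gene symbol, 932 several and 9211 none. Each of 18194 genes was represented by its brightest probe set. All arrays entered 1 limma fit (limma 3.58.1, R 4.3.3) with group as the only term, lmFit, contrasts.fit and eBayes, two-sided, with 5 residual and 8.07 prior degrees of freedom, so that EB_PSC with its 2 arrays shares the spread of the other groups. The number of arrays limits the precision. The fit was tested on simulated data.

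The Polycomb genes and the other lists were chosen with earlier results of these data known. Of 166 listed genes 7 were not analysed here. Named genes were every Polycomb gene, any measured PRC2, PRC1 or opposing gene, up to 4 called genes per other list and comparison by size plus Cdkn2a, Pou5f1, Nanog and Mki67, and the 3 nearest profiles. Alternatives, listed with their effects at the end, covered normalization, probe set choice, prior, array weights, dim probe sets, a 2-fold threshold, single arrays left out, the compared groups alone and a replicate block. No batch is named in the labels. Promoter windows were searched with Python 3.11.15.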

Additional observations from a re-analysis of the deposited data

How the results depend on the processing

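Each result was computed again under the alternatives. The 8 Polycomb genes called lower in EB_PSC kept their calls and direction in every alternative except a required 2-fold change, which left 5 of 9 called lower against PSC. Their sizes moved by over 1.5 times with averaged probe sets, from -1.92 to -1.06 for Cbx7 (-2.36 to -1.06 against ESC), -0.72 to -0.38 for Eed (-1.03 to -0.36 against ESC), -1.18 to -0.74 for Ezh1 and -0.94 to -0.62 for Mtf2. Cyclic loess moved Ezh1 against ESC from -0.65 to -0.40. For PSC against ESC, 3 genes were called in the main analysis (1 higher, 2 lower). Quantile normalization again and cyclic loess each left 1 called and 0 lower, averaged probe sets left 0 higher, and a required 2-fold change left 0 of 9, 0 higher and 0 lower. Leaving out single arrays gave 1 to 3 called, 1 higher in each case and 0 to 2 lower. The Cbx7 difference of -0.45 became 0.00 when its probe sets were averaged, and -0.04 (adjusted p = 0.88) with the mean of those that were not dim, an alternative chosen after seeing the data. Array weights also ended the Cbx7 call (adjusted p = 0.066). Mtf2 was called lower in PSC with averaged probe sets (-0.45, adjusted p = 0.00509), with array weights (adjusted p = 0.00784), with the mean of sets that were not dim (adjusted p = 0.00628) and without the second ESC array (adjusted p = 0.0233). Eed was called lower with a trended and robust prior (adjusted p = 0.0375) and with array weights (adjusted p = 0.0195). Cbx2 was called lower in EB_PSC than in ESC with its probe sets averaged, 1 of them dim (-0.36, adjusted p = 0.0413). The causes were not tested.

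The labels number the replicates, but same-numbered arrays did not deviate together (correlations of deviations from the group means -0.247 to 0.216). With the replicate block 3 Polycomb genes were called for PSC against ESC and 8 in each embryoid body comparison, the counts without it. The median difference of all genes lay between -0.09 and 0.01 in every comparison and normalization.

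Across alternatives the other PRC1 genes had 7 to 10 higher and 7 to 8 lower in EB_PSC than in PSC, the other PRC2 genes 1 to 2 higher and 1 to 5 lower, the target genes 11 to 14 higher and 2 to 3 lower, and the proliferation genes 13 to 17 lower. For PSC against ESC the other PRC1 genes had 2 to 5 higher and 1 to 7 lower, and for EB_PSC against ESC the list with demethylases and the Trithorax group had 4 to 9 lower, 9 without the second ESC array. Signal near the dim limit bounds what can be said of Bmi1 in PSC, Epop in EB_PSC, Olig2 in EB_PSC and ESC, and Cbx8 and Scml2 in all groups. One EB_PSC array fewer leaves a lone sample that is assumed to vary like the other groups.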
